A study of Mus musculus with 7 samples.

Results

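Neutrophil granule and calprotectin genes encode the antimicrobial proteins, proteases and calcium-binding proteins that fill the cytosol and granules of neutrophils, the white blood cells that enter injured tissue early. The group has 10 members, S100a8, S100a9, Ltf, Ngp, Camp, Mpo, Elane, Mmp8, Retnlg and Ly6g, taken by gene name. They were chosen with earlier results of these data known. A member was measured through the array probe that carries its symbol, the brightest where a gene had several. By that rule 9 of the 10 members had a probe. All 9 passed the filter on dim probes, which keeps a probe when 3 or more of the 7 arrays read it well above background, and they stand among 23288 features tested. Ly6g, the gene of a surface protein used to sort mouse neutrophils, had no probe under its symbol.

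The arrays measured RNA of brain from male mice of the C57BL/6N background, 1 sample per array in 1 colour. Wild type mice gave 3 arrays labelled day 3 and 1 labelled sham. Mice with the genotype Pla2g2e -/-, which lack the gene of a secreted phospholipase A2, gave 3 arrays labelled day 3. Day 3 is counted from transient occlusion of the middle cerebral artery for 60 min, a stroke model. The treatment note is the same for every sample and names the occlusion for the sham sample too. Nothing in the labels ties replicates to separate animals, so a p-value reflects the spread of these 7 samples alone and that spread may be technical. All levels are log2 signals from which the array's own 75th percentile was subtracted, so that 0 is that percentile and a step of 1 is a doubling of signal. Arrays give no count of molecules, and their number limits the precision.

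Neutrophils build their granules in order while they mature in the bone marrow. Myeloperoxidase and elastase are transcribed first, in promyelocytes, lactoferrin, cathelicidin and the neutrophilic granule protein follow in myelocytes, and the transcripts of calprotectin remain abundant in the mature cell. Calprotectin is the pair of S100A8 and S100A9, which binds calcium, zinc and manganese and, once released, acts on Toll-like receptor 4. Neutrophils enter the brain within days of a stroke. In RNA of whole tissue, fewer cells of a type and less RNA per cell cannot be told apart.

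The arrays did not all follow their labels in genes of injured brain. Wild type day 3 replicate 1 stood apart from the other 6. All 16 neuron markers measured were highest on it, as were 43.9% of all features. All 16 genes of reactive astrocytes and injury and all 14 of monocytes and macrophages were lowest on it, as were 34.4% of all features. The array labelled sham had a mean level of the astrocyte and injury genes of 2.29, within the 2.27 to 3.02 of the 5 other day 3 arrays. The brighter probe of Pla2g2e, the targeted gene, had its lowest value, -6.89, on wild type day 3 replicate 1. It read -3.68 and -3.36 on the other wild type day 3 arrays, -4.69 on sham and -5.83 to -4.44 in knockout. A dimmer probe read -9.00 on wild type replicate 1, -6.72 and -6.50 on replicates 2 and 3, -6.83 on sham and -8.44 to -7.84 in knockout. Only wild type replicates 2 and 3 and sham read the dimmer probe well above background, while all 7 arrays, knockout included, read the brighter probe well above background. Sham thus lay within the knockout range on the brighter probe and above it on the dimmer. Arrays are therefore named by their labels, and each result is given with all arrays and again with wild type day 3 replicate 1 left out. Whether wild type day 3 replicate 1 and sham carry each other's label was not tested. Every difference from sham given here rests on the label of the sham array, also where replicate 1 is left out. Wild type and sham RNA was hybridised on 1 slide and knockout RNA on another, and an effect of the slide cannot be told apart from an effect of the genotype.

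The calprotectin genes S100a8 and S100a9 split the 7 arrays into 3 levels. S100a8 read -3.21 on wild type day 3 replicate 1, 3.19 on wild type replicate 2, 2.97 on wild type replicate 3, 0.43 on sham, and 3.41, 1.95 and 2.89 on knockout replicates 1, 2 and 3. S100a9 read -2.19, 4.40 and 3.80 on the wild type arrays, 1.53 on sham, and 4.17, 3.19 and 3.13 on the knockout arrays, in the same order. For both genes wild type replicate 1 was lowest, sham came next, and the 5 other day 3 arrays lay above sham without overlap. The lowest of those 5 was 2.88-fold above sham for S100a8 and 3.04-fold for S100a9. Sham in turn was 12.5-fold and 13.2-fold above wild type replicate 1. Among themselves the 5 day 3 arrays spanned 2.75-fold for S100a8 and 2.40-fold for S100a9.

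The probe of S100a8 is shown because it reads the calcium-binding part of the transcript. It lies at chr3:90473778-90473837 on the plus strand of mm9, the build of the array design. Capitals mark the codons that match the pattern of an EF-hand loop, the motif with which S100 proteins hold calcium.
S100a8 probe: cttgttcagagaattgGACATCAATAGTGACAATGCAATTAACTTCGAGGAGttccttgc

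S100a8 and S100a9 are neighbours on chromosome 3, with their RefSeq starts 26.7 kb apart on GRCm38.p6 and on opposite strands. The 250 bases before each start are shown because the levels of both genes moved together over the arrays. They come from RefSeq on GRCm38.p6, where all 9 measured members had an entry. S100a8 is at chr3:90668821-90669070 on the plus strand and S100a9 at chr3:90695722-90695971 on the minus strand. Capitals mark the letters TTNNGCAA or, on the other strand, TTGCNNAA, a core of sites bound by C/EBP factors, which act in granulocyte development.
S100a8 promoter: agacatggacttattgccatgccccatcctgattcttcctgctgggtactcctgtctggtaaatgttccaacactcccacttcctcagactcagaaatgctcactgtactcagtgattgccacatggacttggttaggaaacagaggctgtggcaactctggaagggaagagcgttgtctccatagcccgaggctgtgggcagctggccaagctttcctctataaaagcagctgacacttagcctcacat
S100a9 promoter: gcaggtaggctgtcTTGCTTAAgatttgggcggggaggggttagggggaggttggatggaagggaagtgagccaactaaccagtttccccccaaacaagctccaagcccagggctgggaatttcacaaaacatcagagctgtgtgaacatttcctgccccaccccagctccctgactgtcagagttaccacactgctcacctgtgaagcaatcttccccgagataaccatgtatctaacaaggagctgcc
The S100a9 window held 1 match, whose first base is 236 bases before the start, and the S100a8 window none. Over the 9 members 5 windows held a match (S100a9, Ltf, Ngp, Mmp8 and Retnlg), against 9.56% of 32851 RefSeq windows of the same length. The letters GAGGAA or TTCCTC, a core bound by the myeloid factor PU.1, were in 5 of the 9 windows (S100a8, Ltf, Mpo, Elane and Mmp8) and in 23.3% of all windows. The letters of neither core contain the other. A match is a stretch of letters and not a measured site.

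Mmp8, the gene of neutrophil collagenase, and Retnlg, a resistin-like protein gene of neutrophils, followed the same outline with other details. Mmp8 read -10.04 on wild type replicate 1, a signal not well above background, and -1.13 and -0.98 on the other wild type arrays, -2.30 on sham and -0.13, -2.00 and -1.24 on the knockout arrays. Against the lowest signal well above background on wild type replicate 1, Mmp8 was at least 47.1-fold higher on sham and at least 58.3-fold higher on the lowest of the 5 other day 3 arrays. Sham lay just under those 5 arrays, the lowest of which was 1.24-fold above it. Retnlg read -7.24, -1.71 and -1.76 on the wild type arrays, -3.63 on sham and -1.19, -3.87 and -2.22 on the knockout arrays. Here knockout replicate 2 lay below sham, so the day 3 arrays and sham overlapped. For Retnlg, wild type replicates 2 and 3 had an SD of 0.033, and the 3 knockout arrays an SD of 1.35.

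The window before Mmp8, at chr9:7558179-7558428 on the plus strand of GRCm38.p6, is shown because its match, with the first base 19 bases before the start, was among the nearest to a start.
Mmp8 promoter: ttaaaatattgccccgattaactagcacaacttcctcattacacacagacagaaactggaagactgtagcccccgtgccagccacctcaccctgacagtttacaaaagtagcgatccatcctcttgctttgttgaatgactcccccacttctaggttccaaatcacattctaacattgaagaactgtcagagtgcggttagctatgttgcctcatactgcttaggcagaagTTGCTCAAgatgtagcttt

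Lactoferrin, the neutrophilic granule protein and cathelicidin had another order of arrays, with sham lowest of the 7. Ltf, whose iron-binding product is stored in specific granules, read -4.91, -4.87 and -4.28 on the wild type arrays, -6.80 on sham, and -4.64, -5.75 and -5.68 on the knockout arrays. All 6 day 3 arrays lay above sham for Ltf, wild type replicate 1 included, and the lowest was 2.07-fold above it. Ngp, a granule protein gene related to cystatins and cathelicidins, was well above background on 4 arrays only, wild type replicate 3 at -5.59 and the knockout arrays at -5.10, -6.55 and -6.57. Its signals of -7.37 on wild type replicate 1, -7.43 on wild type replicate 2 and -8.98 on sham were not well above background. Against the lowest signal well above background on sham, the mean of the knockout arrays for Ngp was at least 2.85-fold higher. No fold is given for wild type, which was measured on 1 of 3 arrays.

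Camp, the gene of the antimicrobial peptide cathelicidin, read -3.04, -4.20 and -3.04 on the wild type arrays, -4.28 on sham, and -3.89, -3.62 and -4.18 on the knockout arrays. Its 7 values spanned 2.37-fold, with sham 1.06-fold under the lowest day 3 array, and a second probe of Camp read -4.62 on sham against -4.76 to -3.16 on the day 3 arrays. The second probe thus put knockout replicate 3 below sham. Camp, Ngp and Ltf lie on 1 stretch of chromosome 9, with RefSeq starts 0.570 Mb apart from Camp to Ngp and 0.599 Mb from Ngp to Ltf. The probe of Ngp and the windows before Ngp and Ltf are shown because, calprotectin aside, these genes had the widest gaps between sham and the lowest knockout array. The files give no position for the Ngp probe. The windows lie at chr9:110419558-110419807 for Ngp and chr9:111019042-111019291 for Ltf, both on the plus strand of GRCm38.p6, with capitals as above.
Ngp probe: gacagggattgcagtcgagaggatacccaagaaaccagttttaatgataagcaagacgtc
Ngp promoter: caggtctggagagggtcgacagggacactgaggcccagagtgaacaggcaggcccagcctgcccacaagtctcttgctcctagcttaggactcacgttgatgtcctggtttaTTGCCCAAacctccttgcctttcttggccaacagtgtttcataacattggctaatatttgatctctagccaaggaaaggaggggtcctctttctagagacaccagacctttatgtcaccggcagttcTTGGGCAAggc
Ltf promoter: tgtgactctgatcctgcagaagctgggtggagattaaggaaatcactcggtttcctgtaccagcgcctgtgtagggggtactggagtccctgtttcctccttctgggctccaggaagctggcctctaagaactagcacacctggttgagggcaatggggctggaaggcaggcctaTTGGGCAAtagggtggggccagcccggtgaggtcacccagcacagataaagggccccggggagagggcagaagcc
The Ngp window held 2 matches, with first bases 138 and 11 bases before the start, and the Ltf window 1, at 75 bases.

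Mpo and Elane, the genes of the earliest granules, spanned far less over the arrays than calprotectin. Mpo, which makes hypochlorous acid from hydrogen peroxide, read -5.90, -5.61 and -4.65 on the wild type arrays, -5.82 on sham, and -5.70, -5.21 and -6.11 on the knockout arrays. Elane, the gene of neutrophil elastase, read -2.49, -1.66 and -1.92, -2.20 on sham, and -1.58, -2.34 and -1.62. Sham lay inside the range of the other arrays for both genes. The 7 values of Elane spanned 1.88-fold and those of Mpo 2.74-fold, against 98.7-fold for S100a8 and 96.2-fold for S100a9. A second probe of Mpo was not well above background on any array.

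**Figure D1:**
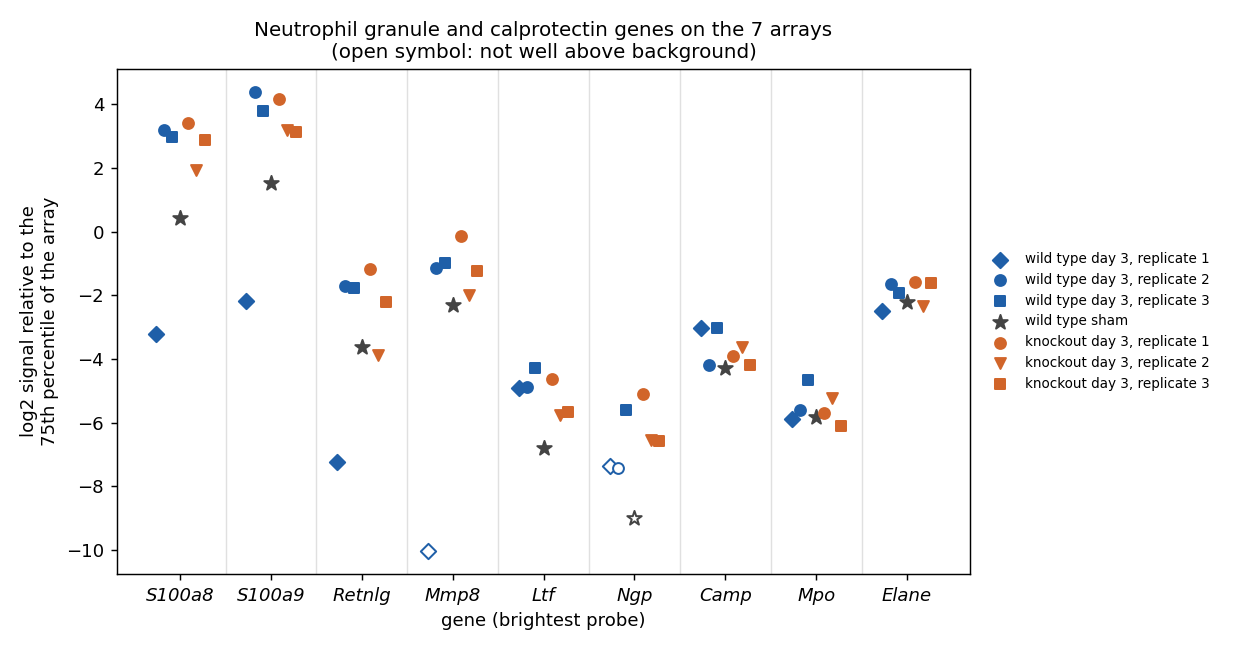
Log2 signal of the 9 measured members relative to the 75th percentile of the array, 1 symbol per array, with open symbols for values not well above background. The blue diamond of wild type day 3 replicate 1 lies lowest for S100a8 (-3.21), S100a9 (-2.19), Retnlg (-7.24), Mmp8 (-10.04) and Elane (-2.49), and the grey star of sham lies lowest for Ltf (-6.80), Ngp (-8.98) and Camp (-4.28); levels of different genes come from different probes and are not comparable.

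A probe that the files name by a transcript and describe as Ly6g was looked at outside the rule. It lies at chr15:74989023-74989082 on the plus strand of mm9 and is shown so that its target can be traced, since genes of the Ly6 family are similar and the files give it no symbol.
Ly6g probe by description: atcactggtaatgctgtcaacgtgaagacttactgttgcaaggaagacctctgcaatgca
It read -4.33, -0.70 and -0.45 on the wild type arrays, -2.20 on sham, and 0.16, -1.57 and 0.27 on the knockout arrays. Wild type replicate 1 was again lowest, sham came next, and the 5 other day 3 arrays lay above sham, the lowest by 1.54-fold.

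Read over the members, wild type replicate 1 was lowest of the 7 arrays for 5 of 9 (S100a8, S100a9, Retnlg, Mmp8 and Elane), against 34.4% of all features. Of these, Mmp8 lay over 16-fold below the lowest of the other 6 arrays, as did 1.4% of all features. Sham was lowest for 3 of 9 members (Ltf, Ngp and Camp), against 10.4% of all features. Of these, Ngp was not well above background on sham or on wild type replicates 1 and 2, so their order was not measured. Camp was lowest on sham by 1.06-fold only, and its second probe was lowest on knockout replicate 3. With the same limits, sham lay below all 5 of the other day 3 arrays for 6 of 9 members (Ltf, Ngp and Camp with S100a8, S100a9 and Mmp8), against 24.9%. It lay over 2-fold below them for 4 of 9 members (S100a8, S100a9, Ltf and, on signals not well above background, Ngp), against 0.648%. Among the 5, knockout replicate 2 was lowest for 5 of 9 members, against 37.5%, and knockout replicate 1 was highest for 5 of 9, against 27.9%. The spots of the members lay between rows 76 and 506 of the array's 532 rows.

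Knockout was set against wild type at day 3 to ask whether the genotype changes these transcripts after the stroke. S100a8 had a mean of 2.75 ± 0.74 in knockout and 0.98 ± 3.64 in wild type, and S100a9 3.50 ± 0.58 and 2.00 ± 3.64 (SD, n = 3 each). The differences, knockout minus wild type, were 1.77 ± 1.80 for S100a8 and 1.50 ± 1.79 for S100a9 (SE). Mmp8 differed by 2.93 ± 2.56, Retnlg by 1.14 ± 1.68, Ngp by 0.72 ± 0.67 and Elane by 0.17 ± 0.33. The Mmp8 signal on wild type replicate 1 was not well above background, so its difference rests in part on an unmeasured value. With normexp background correction, another way to subtract background, the Mmp8 difference was 1.30. Ltf differed by -0.67 ± 0.38, Camp by -0.47 ± 0.39 and Mpo by -0.29 ± 0.41. None of the 9 members passed limma's test (adjusted p = 0.862 to 0.874), and 0% of all features did. An unadjusted p under 0.05 was found for 0 of 9 members and 196 features, 0.842% of all. Knockout and wild type arrays overlapped for every one of the 9 members, while 4.53% of all features had no overlap. The median difference of the members was 0.72, beside -0.03 for all features.

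Once wild type replicate 1 was left out, the positive differences of S100a8, S100a9, Mmp8, Retnlg and Elane turned negative. Wild type then read 3.08 ± 0.16 for S100a8 and 4.10 ± 0.43 for S100a9 (SD, n = 2), and knockout minus wild type was -0.33 ± 0.46 and -0.60 ± 0.40 (SE). Retnlg differed by -0.69 ± 0.81, Mmp8 by -0.07 ± 0.57 and Elane by -0.06 ± 0.29. Ltf at -0.78 ± 0.42, Camp at -0.28 ± 0.40, Mpo at -0.54 ± 0.41 and Ngp at 0.44 ± 0.75 kept their signs. So 8 of 9 members read lower in knockout, with a median of -0.33 beside 0.00 for all features. None passed (limma, adjusted p = 1.0 for each), and 0 had an unadjusted p under 0.05, beside 1.63% of features. The groups overlapped for all 9, beside 11.6% of features without overlap, 5.33% with every knockout array lower. The 95% intervals of the log2 difference were wide: -1.52 to 0.86 for S100a8, -1.66 to 0.46 for S100a9 and -1.88 to 0.32 for Ltf. They hold differences of more than 2-fold downward, so these data neither call a difference nor show that the genotypes were alike.

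**Figure D2:**
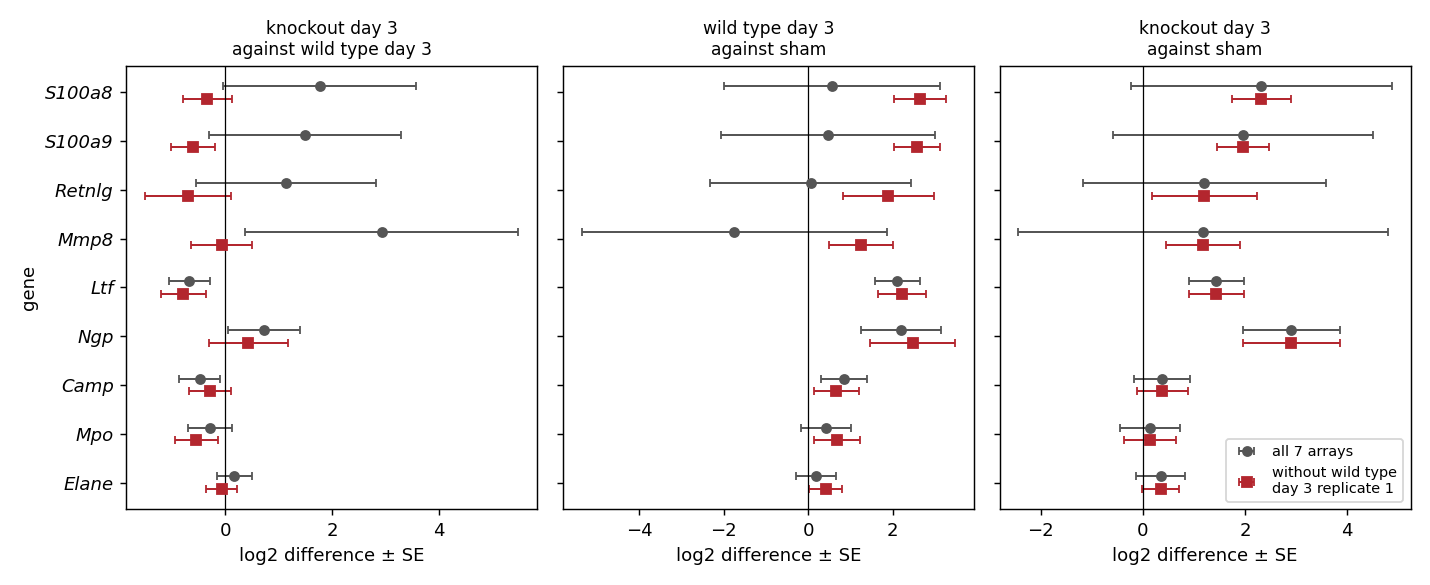
Log2 difference with its SE for each measured member in the 3 comparisons, from limma on all 7 arrays (grey circles) and on the 6 arrays other than wild type day 3 replicate 1 (red squares). The Mmp8 signal on wild type day 3 replicate 1 was not well above background. In the left panel S100a8 moves from 1.77 to -0.33 and Mmp8 from 2.93 to -0.07 when that array is left out, and no member passed the test in any panel.

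The comparisons with sham ask which of these genes the occlusion altered. They share the 1 sham array, an unreplicated sample that takes its spread in the test from the day 3 arrays. For Ltf, wild type day 3 minus sham was 2.11 ± 0.54 and knockout day 3 minus sham 1.44 ± 0.54 (SE). For Ngp, partly below background, the fitted differences were 2.19 ± 0.95 and 2.91 ± 0.95. With normexp background correction the values of both genes were smaller, at 0.85 and 0.61 for Ltf and at 0.52 and 0.75 for Ngp. The last was below the 2.85-fold bound. Ngp was not well above background on sham and passed the filter on dim probes through wild type replicate 3 and the knockout arrays. Its p against sham, counted below, is therefore no support for a difference. S100a8 differed by 0.56 ± 2.55 in wild type and 2.32 ± 2.55 in knockout, and S100a9 by 0.47 ± 2.54 and 1.97 ± 2.54. Mmp8 differed by -1.74 ± 3.62 in wild type and 1.18 ± 3.62 in knockout, and Retnlg by 0.06 ± 2.38 and 1.21 ± 2.38. The wild type value of Mmp8 includes the signal not well above background, and with normexp it was -0.23. Camp, Mpo and Elane differed by 0.86, 0.43 and 0.18 in wild type and by 0.38, 0.14 and 0.35 in knockout. No member passed in wild type or in knockout (limma, adjusted p = 1.0 for each), where 0.0129% of features did in each. Limma's unadjusted p was under 0.05 for 1 of 9 members in wild type, Ltf, beside 1.12% of features, and for 2 of 9 in knockout, Ngp and Ltf, beside 1.31%.

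Without wild type day 3 replicate 1 all 9 members were above sham in both genotypes. In wild type, S100a8 was 2.66 ± 0.61 above sham, S100a9 2.56 ± 0.54, Ltf 2.22 ± 0.57, Retnlg 1.90 ± 1.08 and Mmp8 1.25 ± 0.76. The median of the 9 members was 1.90 in wild type and 1.21 in knockout, beside 0.01 and 0.00 for all features. In knockout the differences themselves stayed as above, and their SE fell to 0.58 for S100a8 and 0.51 for S100a9. The limit given above for the p of Ngp against sham holds here too. None passed after adjustment (limma, adjusted p = 0.768 to 0.769 in wild type, where 0.0258% of features passed, and 0.712 to 0.920 in knockout, where 0.0344% did). Limma's unadjusted p was under 0.05 in wild type for 3 of 9 members, S100a8, S100a9 and Ltf, beside 4.51% of features. In knockout it was under 0.05 for those 3 and Ngp, 4 of 9, beside 4.91%.

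Other granule genes, a list of 23 chosen with earlier results of these data known, had 19 members measured, none of which passed in any of the 3 comparisons, whether wild type replicate 1 was kept or left out. On wild type replicate 1, 14 of the 19 were lowest, beside 34.4% of all features. Chil3, a chitinase-like protein gene of neutrophils and macrophages, read -5.38 there against 4.33 to 6.18 on the other 6 arrays, and Lcn2, which encodes the iron-scavenging protein lipocalin 2, -3.54 against 1.97 to 4.11. Lcn2 is also in the list of reactive astrocyte and injury genes. Adam8, a membrane protease gene, read -1.78 against 4.27 to 5.47. Ctsg and Prtn3, serine protease genes of the same early granules as Elane and Mpo, spanned less, at -5.79 to -5.00 and -5.89 to -4.86 over the 7 arrays. Prtn3 was highest on wild type replicate 1. The median of knockout minus wild type was 1.07 and became -0.14 without wild type replicate 1, with 7 higher and 12 lower. Sham lay below all 5 of the other day 3 arrays for 6 of the 19, beside 24.9% of all features. It lay over 2-fold below them for 2 of the 19, beside 0.648%.

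Receptors of the neutrophil surface split in the same way. Of 23 measured, 19 were lowest on wild type replicate 1, beside 34.4% of all features. Sham lay below all 5 of the other day 3 arrays for 12, beside 24.9%. Among those 5, knockout replicate 2 was lowest for 18, beside 37.5%. Pirb, an inhibitory receptor gene of myeloid cells, read -3.05 on wild type replicate 1 against 2.82 to 3.77, and Fcgr4, an Fc receptor gene, -4.97 against 0.90 to 1.61. Csf3r, the receptor gene for the growth factor that drives neutrophil production, read 4.62 to 5.40 over all 7 arrays, highest on wild type replicate 1. Itgam, an integrin gene that microglia also express, read 3.89 on wild type replicate 1 and 2.07 to 2.65 elsewhere. The median of knockout minus wild type was 1.32, and -0.16 without wild type replicate 1, with none of the 23 past the test.

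Genes related to calprotectin included other S100 proteins, stefins, which inhibit cathepsins, and receptors. Of 18 measured, 15 were lowest on wild type replicate 1, beside 34.4% of all features. Sham lay below all 5 of the other day 3 arrays for 10, beside 24.9%. S100a6 read 1.71 on wild type replicate 1, 5.62 on sham and 5.91 to 6.22 on the other day 3 arrays, and S100a11 -1.48, 2.42 and 2.43 to 3.32. S100b, the S100 gene of astrocytes, read 3.57 to 4.33 over all 7. The calcium-binding S100a16 differed by 0.69 ± 0.34 between knockout and wild type (SE; limma, adjusted p = 0.862) and by 0.38 ± 0.22 without wild type replicate 1. On sham, S100a6 and S100a11 thus lay nearer to the lowest day 3 array than S100a8 and S100a9 did, a difference that was not tested.

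Signals that draw neutrophils into tissue were low on wild type replicate 1 throughout, lowest there for 14 of 14 genes measured, beside 34.4% of all features. Cxcl1, a chemokine gene whose product attracts neutrophils, was not well above background there and read -2.36 on sham and -2.26 to 0.31 on the other day 3 arrays. Selp, the gene of P-selectin on activated endothelium, read -5.30 on wild type replicate 1, -1.18 on sham and -2.01 to 0.85 on the others, and Icam1 -6.29, -2.50 and -2.64 to -0.86. C5ar1, the receptor gene for complement fragment C5a, read -6.40, 0.19 and 0.23 to 1.00. The mean level of the 14 genes was -4.16 on knockout replicate 2 and -2.08 on knockout replicate 1, the lowest and highest of those 5 arrays, and -4.10 on sham. The median of knockout minus wild type was 1.64, and 0.01 without wild type replicate 1, with 7 genes higher and 7 lower.

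Transcription factors of granulocyte development were lowest on wild type replicate 1 for 8 of 10 genes, beside 34.4% of all features. Cebpe, which drives specific granule genes, was not well above background there and read -4.24 on sham and -4.22 to -3.34 on the other day 3 arrays. Cebpd read 0.42, 4.58 and 4.55 to 5.55, and Spi1, the gene of PU.1, -6.06, -2.75 and -2.81 to -2.38. Sham lay below all 5 of the other day 3 arrays for 3 of the 10 genes, beside 24.9% of all features, and over 2-fold below them for 0 of 10. It lay within their range for Cebpa, at 0.64 within 0.44 to 0.79, and for Irf8, at 2.00 within 1.81 to 2.37.

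Genes whose pattern came nearest to the members were ranked by the root mean square distance of centred log2 values over the 7 arrays, among 17137 named features outside the group. Nearest to the mean of S100a8 and S100a9 were Il1r2, a decoy receptor gene for interleukin 1 that neutrophils express (0.36), Pf4, a platelet chemokine gene (0.37), Stfa2l1, a stefin gene (0.39), and the chemokine genes Ccl9 and Ccl6 (0.43 each). Il1r2 read -6.05 on wild type replicate 1, -2.59 on sham and -1.20 to 1.06 on the 5 other day 3 arrays. The stefin genes are near-identical copies whose signals 1 probe may mix. Among the members Retnlg stood at 0.59, with 22 named features nearer, Mmp8 at 1.19 with 853 nearer, and the other 5 at 1.89 to 2.42 with 4005 or more nearer. The Mmp8 distance includes an unmeasured value, the dim signal of -10.04 from wild type replicate 1. Whether Mmp8 lay farther from calprotectin than Retnlg did was therefore not settled. Nearest to Ngp were the keratin gene Krt6a (0.42), Spint3 (0.55), 4930470G03Rik (0.61), the thymus protease gene Prss16 (0.65) and Lrrc17 (0.65), and Ltf stood at 0.80 with 32 features nearer. Ngp was below background on 3 arrays, so its pattern rests in part on unmeasured values.

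Markers of some other cells also differed between the arrays. Red blood cell genes had a mean level of -3.51 on wild type replicate 1, -3.65 on sham and -2.23 to -0.92 on the 5 other day 3 arrays. Hba-a2, an alpha globin gene, read -0.33, 0.08 and 2.57 to 4.43, and Hbb-bt, a beta globin gene, -2.58, -3.11 and -0.71 to 1.29. The copies of each globin gene are near identical. Of 10 red blood cell genes measured, 6 were over 2-fold lower on sham than on all 5 of the other day 3 arrays, as were 3 of the 9 members on measured signals (S100a8, S100a9 and Ltf) and Ngp on a sham signal not well above background, beside 0.648% of all features. The other 4 red blood cell genes, Slc4a1, Ermap, Car1 and Tfrc, were not lower on sham by that margin. Knockout replicate 1, highest for 5 of 9 members among those 5 arrays, was highest for 9 of the 10 red blood cell genes, beside 27.9% of all features. Knockout replicate 2, lowest for 5 of 9 members, was lowest for 9 of the 10, beside 37.5%. Red blood cells and neutrophils of residual blood were not separated from cells in the tissue, and the part of blood in the members' levels was not tested.

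Monocyte and macrophage markers had a mean level of -2.33 on wild type replicate 1, 1.07 on sham and 0.99 to 1.77 on the 5 other day 3 arrays. F13a1, a gene of monocytes and macrophages, read -2.09, 2.10 and 2.64 to 4.16, and Ly6c1 3.00, 4.62 and 5.12 to 6.48, while Cd68 read 0.61, 5.11 and 4.75 to 5.53. Sham lay below all 5 of these arrays for 5 of the 14 markers measured, beside 24.9% of all features, and over 2-fold below them for 0 of 14. Monocytes also transcribe S100a8 and S100a9, and the part of each cell type in these signals was not tested. Ly6c2, also listed as a monocyte marker, had no probe under its symbol, and which cells gave the Ly6c1 signal was not tested. Neuron markers had their highest mean level on wild type replicate 1, at 3.68, with 1.64 on sham and -0.33 to 1.63 on the others, opposite to the calprotectin genes on that array.

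**Figure D3:**
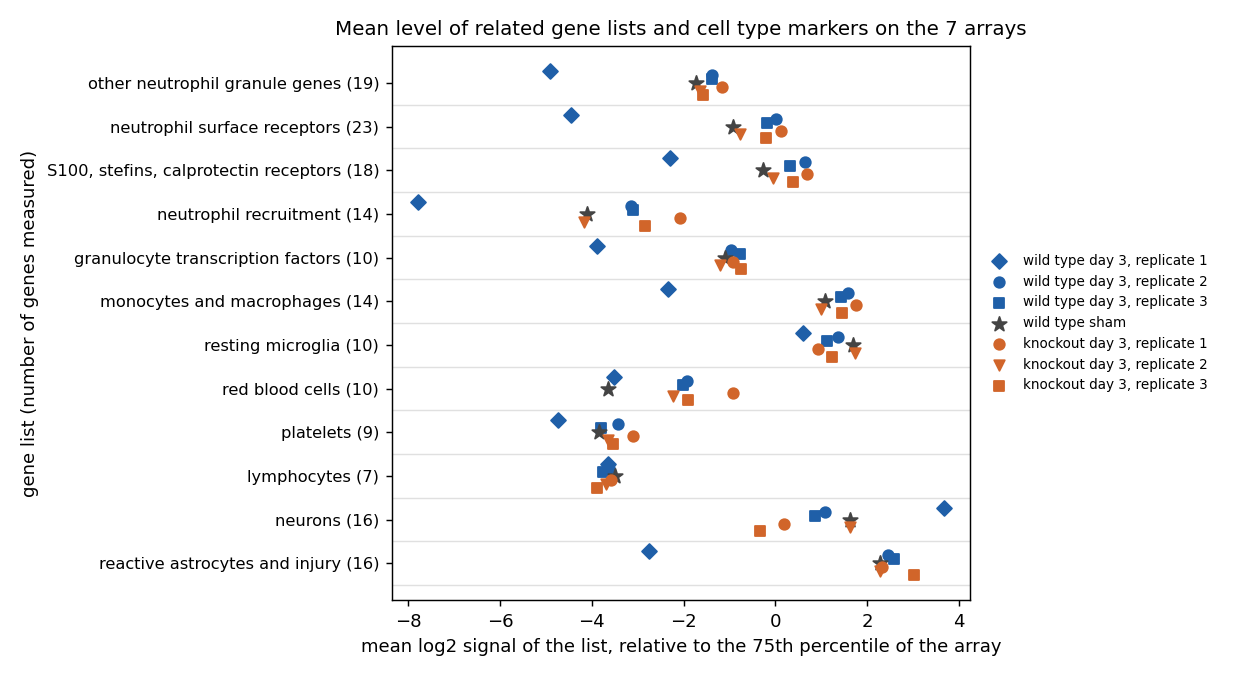
Mean log2 signal of each related gene list and cell type marker list on the 7 arrays, relative to the 75th percentile of the array, with the number of genes measured in brackets. Wild type day 3 replicate 1 (blue diamond) lies lowest for neutrophil surface receptors (-4.45 against -0.93 or more on every other array) and highest for neurons (3.68), and sham (grey star) lies lowest for red blood cells (-3.65).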

How the data were processed

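RNA of 7 mouse brain samples was measured on Agilent arrays, 1 array per sample, each placed by its title. Per the file headers, the deposited intensity (processed signal of Agilent Feature Extraction 11.5.1.1, the version also in the submitters' processing notes) had its background subtracted within each array. The deposited value table is a linear ratio, found here to be that signal over the array's 75th percentile, within 0.0428%. Its column medians were 0.0863 to 0.0976 over all spots. It served as an alternative.

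Of 43020 spots other than controls, 31177 to 34029 per array were well above background. Outlier-flagged spots, 91 to 147 per array, were left out, and 0 were saturated. The deposited intensity was taken to log2 here and each array's 75th percentile subtracted. Repeated spots were averaged per probe, a probe needed 3 of 7 arrays well above background, and the brightest stood for a gene name. An "at least" fold sets the brighter mean against the higher of the dim signal and the array's lowest signal well above background.

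Tests used limma 3.58.1 in R 4.3.3 (lmFit, eBayes, 3 groups, two-sided), Benjamini-Hochberg adjusted over 23288 features, threshold 0.05. With 3 arrays against 3 an exact permutation test cannot go below p = 0.1, so none was run. The steps were tested on simulated data with 200 features changed in knockout. With all arrays, knockout against wild type called 0% of log2 changes of 1, 37.3% of 2 and 68.2% of 4. Without wild type replicate 1 the shares were 14.9%, 46.3% and 74.2%. Most simulated 2-fold changes were thus missed. Unchanged features were called 3 times with all arrays and 6 times without wild type replicate 1. The simulation gave a feature the same spread on every array, whereas in the data wild type replicate 1 stood apart. The shares therefore hold for that setting and do not give the power of these data. Named genes are all members, per list up to 4 with the smallest p and 4 with the highest mean, and the 5 nearest patterns to calprotectin and to Ngp. Some further genes are named where the markers of a list did not move alike. The members and lists were chosen with earlier results of these data known. Some lists share genes (Lcn2, C5ar1, Cd14 and Ppbp), so their counts are not independent. Plots used Python 3.11.15 and matplotlib 3.10.9.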

Additional observations from a re-analysis of the deposited data

How the results depend on the processing

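No member passed under any of the settings run. Smallest adjusted p over the alternatives was 0.664 for knockout against wild type, 0.0777 for wild type against sham and 0.135 for knockout against sham, the last 2 with array weights. Features called in wild type and in knockout against sham were 3 and 3, and 0 and 0 with normexp or with probes above background on all 7 arrays, 1 and 1 with quantile normalization, 1 and 0 with median centring, 146 and 95 with array weights, and 0 to 6 and 0 to 8 when 1 array was left out (the highest without wild type replicate 1, otherwise 0). Knockout against wild type gave 2 with array weights and 0 otherwise. Median centring moved the median of all features to 0.13 in wild type and 0.12 in knockout against sham, and normexp to 0.10 and 0.11. With array weights, which gave wild type replicate 1 a weight of 0.0513, knockout minus wild type was -0.086 for S100a8, -0.61 for S100a9 and -0.18 for Retnlg, and wild type minus sham 1.14 for Mmp8.

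Leaving out 1 array at a time, knockout minus wild type ranged from -0.33 to 2.87 for S100a8, -0.60 to 2.69 for S100a9, -0.066 to 4.46 for Mmp8, -0.69 to 2.07 for Retnlg, -0.063 to 0.42 for Elane and -0.54 to 0.080 for Mpo. Without wild type replicate 1 and sham together the values were the lower ends of the first 5. Wild type minus sham ranged from -0.55 to 2.66 for S100a8, -0.73 to 2.56 for S100a9, -3.28 to 1.25 for Mmp8, -0.87 to 1.90 for Retnlg, -0.0058 to 0.41 for Elane and -0.32 to 1.62 for the probe described as Ly6g. Knockout minus sham ranged from -0.091 to 0.36 for Mpo. The directions of Ltf, Ngp and Camp held under all settings that tested them, but normexp reduced wild type minus sham to 0.85 for Ltf and 0.52 for Ngp and knockout minus sham to 0.61 and 0.75. Neither gene then had an unadjusted p under 0.05 in knockout against sham. With the replicate block the count for knockout against wild type was 0, with 148 at an unadjusted p under 0.05. The samples share only a number: correlations of same-numbered arrays were -0.38, -0.56 and 0.35, and wild type replicate 1 matched knockout replicate 2 best. Dim signals limit Ngp, measured on 4 arrays, and 1 sham array limits both comparisons with it.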

Other observations

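Resting microglia had their highest mean levels on knockout replicate 2 (1.75) and sham (1.70), against 0.94 to 1.36 on the 4 other arrays but wild type replicate 1, at 0.61. Cx3cr1, the fractalkine receptor gene, read 4.33 on knockout replicate 2, 4.24 on sham, 3.14 to 3.58 on those 4 and 2.86 on wild type replicate 1. Slc2a5 read -0.99, -1.03, -4.13 to -2.52 and -0.30 in the same order. The 10 markers did not move alike. On wild type replicate 1, 7 were lowest, while P2ry12, Siglech and Slc2a5 were highest, and Siglech was lowest on sham, at 3.77. Knockout replicate 2 and sham were the arrays on which Retnlg and Fcgr4 were lowest apart from wild type replicate 1. Lymphocyte markers differed little, with a mean level of -3.88 to -3.48 over the 7 arrays and 7 of 13 measured. Among platelet genes, Pf4 read -1.32 on wild type replicate 1, 2.69 on sham and 3.47 to 5.14 on the other day 3 arrays, while Gp1bb read -1.63 on wild type replicate 1 and -4.44 to -3.63 elsewhere and Itga2b -5.76 there and -4.38 to -3.90 elsewhere. Ppbp read -9.70 on wild type replicate 1, not well above background there, and -5.75 to -2.28 elsewhere, and Treml1 read -4.64 there and -3.14 to -2.19 elsewhere. Of 9 platelet genes measured, 4 were lowest on wild type replicate 1, beside 34.4% of all features.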
